A study of Homo sapiens with 3 samples.

Results

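The phosphate importers SLC20A1 and SLC20A2 and the amino acid exchangers SLC7A11 and SLC7A5 were described by the m6A regions that a deposited list places inside them. A region was a member when its midpoint, on either strand, fell inside a fixed window around 1 of the 4 genes, and 61 of the 41836 listed regions (0.146%) did. The genes were chosen by the number and density of listed regions, with this list in view, so every count below is a description with no test. The series holds 3 libraries, each made from the nuclear RNA of MDA-MB-231 cells, a long-established human line from a triple-negative breast cancer, with no treatment or genotype named in the labels. Rabbit antibody against m6A captured the RNA of 2 libraries, and rabbit IgG served as the control in 1. For the series the authors deposited 1 list of regions in hg19, with no value for any single library. Whether and how the IgG library entered the list is not given. Depth, enrichment over IgG and agreement between libraries could not be measured, and the values that follow carry no replicate error.

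N6-methyladenosine (m6A) is a methyl mark that the METTL3 and METTL14 complex places on adenosines of RNA, often inside the letters GGAC, while the RNA is still in the nucleus. In mature messages the mark is known to be frequent in long internal exons and near stop codons, and reader proteins that bind it affect splicing, stability and translation. SLC20A1 (PiT-1) and SLC20A2 (PiT-2) bring phosphate into the cell together with sodium, and both also serve as receptors for gammaretroviruses. SLC7A11 (xCT) exchanges glutamate for cystine, which feeds glutathione synthesis, and SLC7A5 (LAT1) exchanges large neutral amino acids such as leucine. Both amino acid exchangers work as light chains bound to the heavy chain SLC3A2. The list gives no RNA level, so the amount of an RNA and its degree of methylation cannot be told apart in the counts below.

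GGACT, the most favoured form of the GGAC motif, was counted in the principal GENCODE transcript of each gene (release 29, GRCh38), on the sense strand of the spliced RNA, where each GGACT also counts as a GGAC. The sites below are shown because GGACT is the form of the motif that the mark is known to favour in messages. GGACT is in capitals, with 8 bases on each side, 5′ to 3′, written as DNA. They comprise both sites of SLC20A1, the 3 sites of SLC7A11 and the 5 sites of SLC7A5, while the 2 sites of SLC20A2 are counted further on and not printed.
SLC20A1, coding, bases 596 to 600: cctttggtGGACTacctatgg
SLC20A1, coding, bases 1547 to 1551: cccagcgtGGACTtgaaagag
SLC7A11, after the stop codon, bases 1793 to 1797: gaactaatGGACTtgagatct
SLC7A11, after the stop codon, bases 4383 to 4387: tatttttaGGACTcatcatga
SLC7A11, after the stop codon, bases 5394 to 5398: gatagtatGGACTgaaggtaa
SLC7A5, coding, bases 1005 to 1009: gtggccgtGGACTtcgggaac
SLC7A5, after the stop codon, bases 2222 to 2226: gccccgatGGACTcctgacca
SLC7A5, after the stop codon, bases 3206 to 3210: cagtttggGGACTcaggacca
SLC7A5, after the stop codon, bases 3402 to 3406: aggcaggtGGACTgactgtgt
SLC7A5, after the stop codon, bases 4071 to 4075: accgcaggGGACTgtctcaga

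Bases are counted from 1 at the 5′ end of the transcript. In SLC7A11 the first of these sites began 7 bases after the stop codon. The sites could not be matched to the listed regions, since the list is in hg19 and the transcripts in GRCh38 and no coordinate was moved between them. For the same reason no region was assigned to an exon, an intron or an untranslated region.

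Of the 4 genes, SLC20A1 held the most m6A regions and SLC20A2 the fewest. SLC20A1 held 31 regions in its window of 19 kb on chromosome 2 (113403000 to 113422000), which is 1.63 per kb. SLC20A2 held 2 regions in 125 kb on chromosome 8 (42273000 to 42398000), or 0.016 per kb. The density of the first phosphate importer was thus 102 times that of its paralog, in a window shorter by a factor of 6.58. SLC7A11 held 18 regions in 79 kb on chromosome 4 (139085000 to 139164000), or 0.228 per kb, and SLC7A5 held 10 regions in 41 kb on chromosome 16 (87863000 to 87904000), or 0.244 per kb. The densities of the amino acid exchangers differed by a factor of 1.07, the closest of the 6 possible pairs, with SLC7A5 ahead, although with 10 kb added at each end SLC7A11 was ahead (0.182 against 0.164). In the windows as defined, SLC20A1 was 6.69 times as dense as SLC7A5 and 7.16 times as dense as SLC7A11.

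The share of bases covered by a region gave the same order of the genes. Regions covered 2587 nt of the SLC20A1 window (13.6%), 567 nt of the SLC7A5 window (1.38%), 951 nt of the SLC7A11 window (1.20%) and 92 nt of the SLC20A2 window (0.0736%). The contrast between the phosphate importers was larger by cover (185-fold) than by count, because the SLC20A1 regions were also wider.

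**Figure D1:**
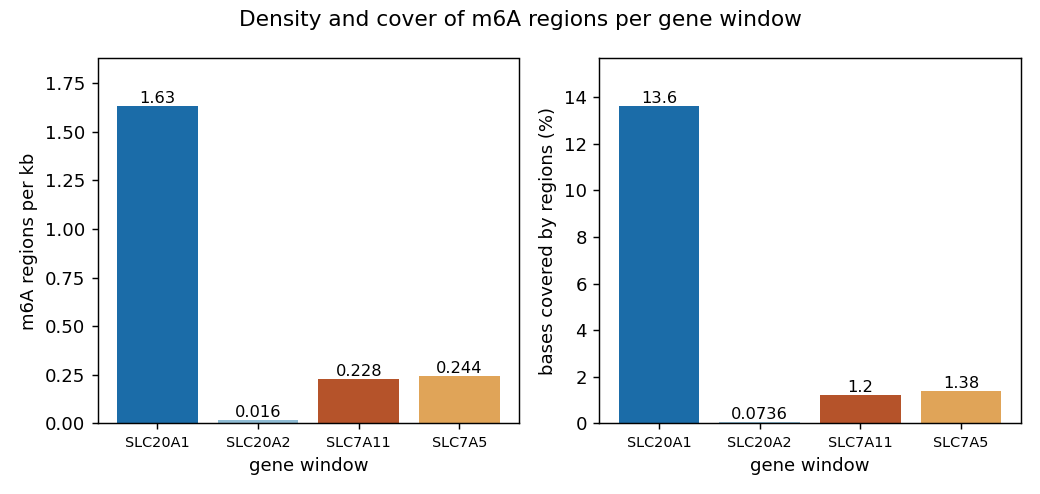
Bars give m6A regions per kb (left) and the percent of bases covered by a region (right) in the windows of SLC20A1, SLC20A2, SLC7A11 and SLC7A5, each from 1 pooled list and so with no error bar. SLC20A1 stands at 1.63 per kb and 13.6%, the amino acid exchangers at 0.228 and 0.244 per kb, and SLC20A2 at 0.016 per kb.

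The deposited strand of the members matched the strand of the gene for 60 of 61 regions. The 3 genes on the minus strand, SLC20A2, SLC7A11 and SLC7A5, held 30 regions and none of them was on the plus strand. In RefSeq (GRCh38) other genes overlap these 3 in position, and their strands were not compared. They are SMIM19 at SLC20A2, SLC7A11-AS1 at SLC7A11, and MIR6775, SLC7A5-AS1 and MIR11401 at SLC7A5. The exception lay in SLC20A1, a plus-strand gene: a minus-strand region of 65 nt from 113404160 to 113404224. It was the most upstream region of the window, 1.19 kb from its edge, and the first plus-strand region began 50 bases beyond its end, at 113404274.

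The regions stayed inside the gene windows. The list held no region within 10 kb of either edge of the 4 windows, so adding 10 kb on each side changed no count. Beyond SLC20A1 the nearest listed regions on either strand lay 70.0 kb upstream and 72.2 kb downstream. For SLC7A5 these distances were 74.8 and 63.5 kb, and for SLC7A11 they were 589 and 3835 kb. At SLC20A2 the next region on the downstream side was 10.0 kb away on the opposite strand, and 208 kb away on the strand of the gene.

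**Figure D2:**
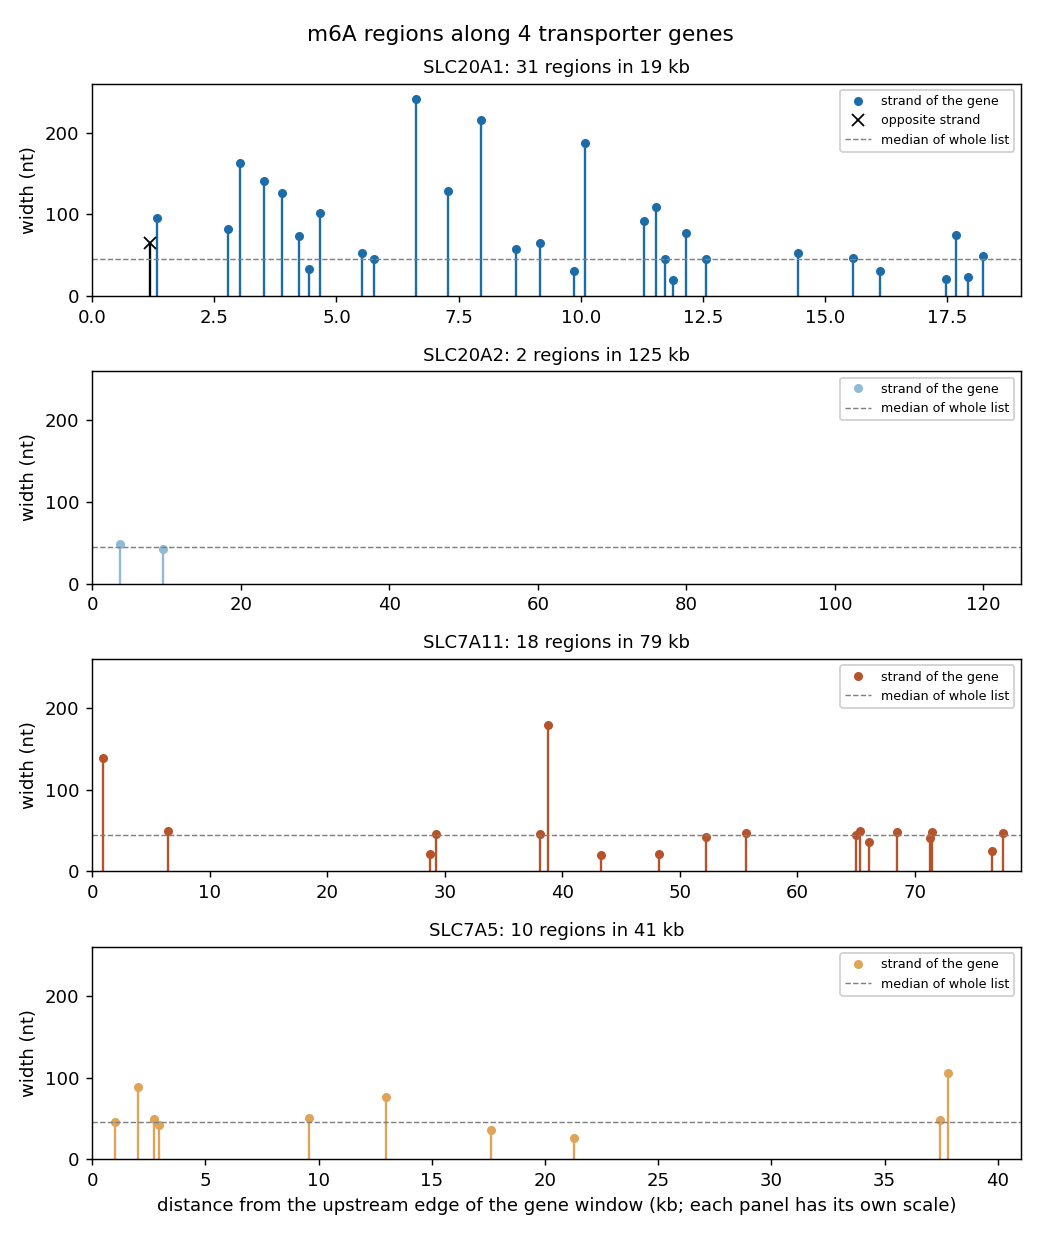
Each stem is 1 m6A region, at its distance in kb from the upstream edge of the gene window (horizontal axis, with its own scale in each panel) and with its width in nt as height. Dots are regions on the strand of the gene, the cross is the single opposite-strand region of SLC20A1, and the dashed line is the median width of the whole list (45 nt). The 31 regions of SLC20A1 run along most of its window, whereas both regions of SLC20A2 lie within 10 kb of the upstream edge.

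In SLC20A1, the sodium-phosphate importer PiT-1, the plus-strand regions formed 1 chain when neighbours up to 10 kb apart were joined. The 30 regions ran from 113404274 to 113421256, 17.0 kb, and covered 14.9% of that stretch. The median gap between neighbours was 331 nt and the range 122 to 1822 nt, with 24 of 29 gaps at most 1 kb. The first plus-strand region spanned 113404274 to 113404368 (95 nt) and the last 113421208 to 113421256 (49 nt).

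The chain of SLC20A1 was among the densest of the 143 chains with 20 or more regions, which is the pattern for which the gene was picked. Chains of fewer regions were not ranked. Of the 143 chains, 1 had a higher cover, 1 had more regions per kb and 6 had a higher median width. Over those 143 chains the medians were 3.86% cover, 0.571 regions per kb and a median width of 48.5 nt, against 14.9%, 1.77 per kb and 69.5 nt in SLC20A1. The chain with a higher cover (17.8%) held 28 plus-strand regions on chromosome 11 from 65190793 to 65212215, and the one with more regions per kb (also 1.77) held 24 minus-strand regions on chromosome 1 from 8072246 to 8085771. Both were singled out after their values were seen. When chromosomes were divided into bins of 19 kb, 2 of the 17757 bins that held a region held at least 31. Both are on chromosome 2: one spans 92302001 to 92321000 with 57 regions, the other 112233001 to 112252000 with 31. Neither bin is at SLC20A1, since a bin edge cuts its window and its regions fall in adjacent bins. The count of 31 comes from a window set on the gene, which favours it over bins that may cut a locus.

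The regions of SLC20A1 were spread fairly evenly in number but became narrower toward the downstream end. In 5 equal parts of the window, each 3.8 kb, there were 5, 8, 6, 6 and 6 regions from upstream to downstream. Their median widths were 95, 87.5, 78.5, 48.5 and 38 nt in the same order. The cover of the parts was 14.4, 21.1, 17.1, 9.13 and 6.42%. Regions over 100 nt numbered 2, 4, 2, 1 and 0. Neighbouring regions are not independent, and the order was not tested.

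The 3 widest regions of SLC20A1 lay between 6.6 and 10.1 kb from the upstream edge. They measured 241 nt (113409515 to 113409755), 216 nt (113410859 to 113411074) and 187 nt (113412994 to 113413180). All 3 belonged to the largest cluster joined at 1 kb, which held 16 regions from 113405742 to 113413180, covered 23.4% of 7.44 kb and had a median width of 91.5 nt, with 8 regions over 100 nt. Of the 31554 such clusters in the list, 3 held more regions and 7 held at least 16, this one included. The largest of them, with 24 regions, starts at 92315233 of chromosome 2, and the others, with 20 and 17, start at 122015195 and 65196785 of chromosome 11.

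Downstream of that cluster the regions of SLC20A1 came in smaller groups. A group of 6 spanned 113414254 to 113415588, and included the narrowest region of the gene, of 19 nt (113414887 to 113414905). After the widest gap, 1822 nt, followed a lone region (113417411 to 113417462), a pair (113418552 to 113419144) and a final group of 4 from 113420464 to 113421256 with a median width of 36 nt. Regions under 30 nt, 3 of the 31, lay in the group of 6 and in the final group.

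SLC20A2, the paralog PiT-2, held a region of 49 nt from 42394205 to 42394253 and a region of 43 nt from 42388444 to 42388486. They lay 3.77 and 9.54 kb from the upstream edge of the window, 5718 nt apart, and the remaining 115 kb toward the 3′ end held none. Among 8287 bins of 125 kb that held a region, the median was 3 regions and 67.9% held at least 2. The count of SLC20A2 was thus just under the median of occupied bins of its own length. The widths, 43 and 49 nt, were close to the median of the minus-strand regions of chromosome 8 (47 nt, 1454 regions).

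SLC7A11, the cystine and glutamate exchanger, held regions from near one edge of its window to near the other, and they were most frequent at the downstream end. The 5 equal parts of 15.8 kb held 2, 2, 3, 3 and 8 regions from upstream to downstream, so that 6 of 18 (33.3%) lay before the midpoint. The first region (139162997 to 139163135) lay 0.935 kb from the upstream edge, and the last (139086450 to 139086496, 47 nt) lay 1.47 kb from the downstream edge. Between the regions at 6.42 and 28.7 kb a stretch of 22.3 kb was empty, the widest gap in the 4 genes between neighbouring regions of the same strand.

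The regions of SLC7A11 were of ordinary width except for 2 regions. The widest, of 179 nt, spanned 139125124 to 139125302, 38.8 kb into the window, and the next, of 139 nt, was the first region of the gene. The third in width, of 49 nt, spanned 139157558 to 139157606, and another region had the same width. Widths of 45 to 49 nt made up 9 of the 18 regions, and 4 were under 30 nt. Clusters joined at 1 kb held at most 3 regions, from 139097870 to 139099037. Joined at 10 kb, the gene gave a chain of 16 regions over 48.8 kb with 1.56% cover, and a pair at the upstream end.

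SLC7A5, the leucine exchanger LAT1, showed the opposite arrangement, with 7 of 10 regions (70.0%) before the midpoint of its window. The 5 parts of 8.2 kb held 4, 2, 2, 0 and 2 regions from upstream to downstream. The first 4 formed the largest cluster of the gene at 1 kb, from 87901011 to 87903026, all within 3 kb of the upstream edge. Single regions followed at 9.56, 12.99, 17.6 and 21.3 kb. A gap of 16.1 kb then separated them from a final pair between 87866153 and 87866590. The first region of the gene spanned 87902982 to 87903026 (45 nt).

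The widest region of SLC7A5, of 106 nt, was also its last (87866153 to 87866258), 3.21 kb from the downstream edge. The other wide regions measured 88 nt (87901923 to 87902010) and 76 nt (87890969 to 87891044). SLC7A5 and SLC7A11 thus had nearly the same density and cover, and their regions lay toward opposite ends of the genes. This contrast rests on 10 and 18 regions and was not tested.

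The counts of both amino acid exchangers were in the upper range of occupied bins. The genes were chosen by number and density of regions, so this rank follows in part from the choice. Of 10165 occupied bins of 79 kb, 2.77% held at least 18 regions, the count of SLC7A11. Of 13360 occupied bins of 41 kb, 5.23% held at least 10, the count of SLC7A5. The median bin held 2 regions at either length. Bins ignore where genes lie, so this ranks the windows by position along the genome and not against other genes. Windows set on a gene are also favoured over bins that may cut a locus.

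Width set SLC20A1 apart from the other transporters. The median over all SLC20A1 regions was 65 nt (quartiles 45 and 105 nt, range 19 to 241 nt). It was 46 nt in SLC20A2, 46 nt in SLC7A11 (quartiles 37.25 and 48 nt, range 20 to 179 nt) and 48.5 nt in SLC7A5 (quartiles 42.75 and 69.75 nt, range 26 to 106 nt). The whole list had a median of 45 nt with quartiles of 33 and 54 nt. Regions over 100 nt made up 9 of 31 in SLC20A1 (29.03%), 2 of 18 in SLC7A11, 1 of 10 in SLC7A5 and 0 of 2 in SLC20A2, beside 10.3% of the whole list. On the strand and chromosome of the gene that share was 9.78% for SLC20A1, 12.8% for SLC20A2, 9.99% for SLC7A11 and 10.9% for SLC7A5. Within chains of 20 or more regions, where SLC20A1 belongs, the share was 17.3%. A width of exactly 49 nt was held by 5 of the 61 members (8.20%, against 8.79% in the list). The share differed by strand in the list, with 5.17% of plus-strand and 11.5% of minus-strand regions. Among the members it was 1 of 31 in SLC20A1 (3.23%) and 4 of 30 in the minus-strand genes (13.3%).

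**Figure D3:**
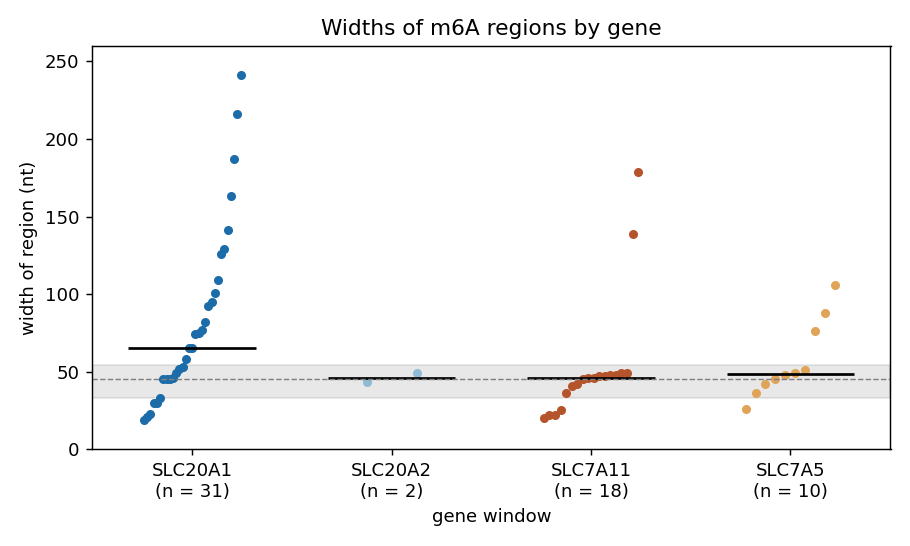
Each dot is the width in nt of 1 m6A region in the window of SLC20A1, SLC20A2, SLC7A11 or SLC7A5, sorted within the gene. Black bars are medians of the gene, the dashed line and grey band are the median (45 nt) and quartiles (33 and 54 nt) of the whole list. The median of SLC20A1, 65 nt, lies above the band, and those of the other genes, 46 to 48.5 nt, lie inside it.

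The gene models differ in how much of each gene the principal transcript takes up. In GENCODE the principal SLC20A1 transcript (ENST00000272542) has 11 exons and 3381 nt, 18.8% of a gene of 17.97 kb, and encodes 679 residues. The SLC20A2 transcript (ENST00000342228) also has 11 exons, with 3657 nt and 652 residues, but its gene spans 125 kb, of which this transcript makes up 2.92%. Exons of other transcripts were not counted. The coding parts of the paralogs are thus of like length (2037 and 1956 nt), and the difference in gene length lies outside the exons of these transcripts. SLC7A11 (ENST00000280612) has 12 exons in 78.3 kb and a last exon of 7921 nt, and SLC7A5 (ENST00000261622) has 10 exons in 39.5 kb and a last exon of 3003 nt.

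Distances from the downstream edge can be set beside the last exons only loosely, as lengths and without placing any region in an exon. The window edge is not the gene end. The windows of SLC20A1, SLC7A11 and SLC7A5 (19, 79 and 41 kb) are longer than the gene models (17.97, 78.3 and 39.5 kb). How the extra length divides between the ends was not determined, so regions may lie nearer the gene end than the edge. In SLC7A11, 4 of 18 regions lay within 8 kb of the downstream edge of the window. In SLC7A5 no region lay within 3 kb of it and 2 lay within 5 kb. In SLC20A1, whose last exon is 964 nt, 1 region lay within 1 kb and 4 within 2 kb. SLC20A2 had none within 10 kb, with a last exon of 1493 nt.

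The motif counts of the messages did not follow the region counts. GGAC occurred 5 times in the SLC20A1 transcript (1.48 per kb), 12 times in SLC20A2 (3.28 per kb), 12 times in SLC7A11 (1.24 per kb) and 27 times in SLC7A5 (5.95 per kb). The median over the principal transcripts of 14397 protein-coding genes was 3.79 per kb, and 7.08% of those genes had a lower density than SLC20A1. That share was 4.87% for SLC7A11, 40.4% for SLC20A2 and 80.2% for SLC7A5. GGACT occurred 2, 2, 3 and 5 times in the same order, and 86.6% of the 14397 transcripts, which differ in length, hold at least 1. In SLC7A11 all 3 sites, and in SLC7A5 4 of 5, lay after the stop codon, and both sites of SLC20A1 and both of SLC20A2 were coding. The part after the stop codon makes up 81.5% of the SLC7A11 transcript and 65.0% of that of SLC7A5. It makes up 23.7% in SLC20A1 and 36.3% in SLC20A2, and the placement was not tested against these shares. Introns, which make up most of the nuclear precursor of each gene, were not searched.

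SLC7A5 also overlaps annotated microRNA genes in position, and nuclear RNA includes primary microRNA transcripts. In RefSeq (GRCh38.p14) the positions of MIR6775 and MIR11401 overlap that of SLC7A5. Their strands were not compared with that of the gene, and only MIR6775 is shown. The MIR6775 hairpin is printed with its GGAC in capitals, and the mature forms with their seeds (bases 2 to 8) in capitals.
MIR6775 hairpin: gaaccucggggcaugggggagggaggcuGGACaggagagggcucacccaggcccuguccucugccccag
hsa-miR-6775-5p: uCGGGGCAugggggagggaggcugg
hsa-miR-6775-3p: aGGCCCUGuccucugccccag

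The 2 mature forms have different seeds. The hairpin of 69 nt holds GGAC once, on its own strand. The motif occurs at least once in 27.3% of the 1562 hairpins in the RefSeq table, whose median length is 80 nt. Whether any of the 10 SLC7A5 regions touches the hairpin was not determined, because their builds differ.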

How the data were processed

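Nuclear RNA of MDA-MB-231 cells was measured in 2 m6A libraries and 1 IgG library. Per the submitters' processing notes, the authors used Bowtie2 and the build hg19. How regions were called and how the IgG library was used is not given in the sources used here. Each deposited score is 1, so only the deposited positions and strands were used. Read depth is unknown. Windows were read in kb from the rule that defines the gene group. Width is end minus start of the record, positions are printed from 1, and distances run from the upstream window edge on the strand of the gene to the midpoint. Same-strand regions up to 1 kb (clusters) or 10 kb (chains) apart were joined. Bins start at the first base of each chromosome. All 4 genes were named, each with its first, last and 3 widest regions and its largest cluster. The genes, lists and measures were chosen with earlier results of these data known. Other transporter genes listed for comparison were not analysed here, as no hg19 annotation was used. All 4 genes matched a GENCODE principal transcript, taken as the longest with that tag. The functions were tested on simulated data. Software was scipy 1.17.1, matplotlib 3.10.9, pandas 2.3.3 and numpy 2.4.6 under Python 3.11.15.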

Additional observations from a re-analysis of the deposited data

How the results depend on the processing

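Of 160 values recomputed under 7 alternatives for counts, density, cover, width and position and 5 for clusters, 136 stayed within the limits set (1.5 times for counts, otherwise the 95% binomial interval, which takes bases or regions as independent and is too narrow for cover). The order of the genes by density and cover was unchanged under 6 of the 7 alternatives. Among the 7, taking any overlap or only whole regions had to repeat the main values, since no region crosses a window edge. Keeping only the strand of the gene could change SLC20A1 alone. The values that had to stay the same are counted in the 136 and say nothing on stability. With 10 kb added at each end the same regions were spread over longer windows, which put SLC7A11 ahead of SLC7A5 (0.182 and 0.164 regions per kb), and gave 0.795 regions per kb in SLC20A1 and a cover of 6.63% in SLC20A1, 0.961% in SLC7A11 and 0.930% in SLC7A5. With 1 kb removed at each end the cover was 14.9% in SLC20A1 and 1.05% in SLC7A11. Merging regions up to 200 nt apart left 21 regions in SLC20A1 (1.11 per kb) with a median width of 126 nt and 21.5% cover, and gave 1.37% cover in SLC7A11. Regions at least as wide as the list median numbered 1 in SLC20A2 (0.0392% cover) and 11 in SLC7A11 (0.139 per kb, 0.941% cover), and covered 12.8% of SLC20A1 and 1.13% of SLC7A5; fewer regions enter by construction. The largest cluster held 7 regions in SLC20A1 and 2 in SLC7A5 when joined at 0.5 kb, 30 in SLC20A1 at 2 kb, and 30, 2, 16 and 8 in SLC20A1, SLC20A2, SLC7A11 and SLC7A5 at 10 kb. No paired analysis was possible because the deposited regions carry no values of single libraries, and for the same reason no library could be left out. Depth and enrichment over IgG limit every value and are unknown here.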
